A study of Mus musculus with 6 samples.

Results

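Arg1, Chil3, Retnla, Clec10a, Mrc1, Cd163, Lyve1, Folr2, Msr1 and Marco are 10 mouse genes of alternatively activated and scavenging macrophages. They were chosen by name and found by Ensembl identifier, and all 10 were among the 22556 genes listed for each mouse. All 10 also had a mean of at least 1 TPM (transcript abundance scaled for transcript length and library size) over the 6 mice, the filter used for tests. Because measured values of these mice had a part in the choice, the levels and differences of the 10 genes are given as a description. No p-value is given for them, and counts of them past the threshold used for all genes are set beside the share of all genes with nothing read from them.

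Whole pancreas RNA of 6 wild type C57BL/6 mice aged 8 weeks was sequenced, in 3 groups of 2 mice. Saline mice were the controls, AP mice had acute pancreatitis induced with caerulein (cerulein in the labels), a peptide that overstimulates acinar cells through the cholecystokinin receptor, and polyI:C-pretreated AP mice (pretreated mice below) also received polyI:C, a synthetic mimic of viral RNA that acts on TLR3, before caerulein. A group given polyI:C without caerulein was not analysed here. The labels do not say whether the samples of a group came from separate cages or litters, and the errors and p-values given below measure only the spread between these samples. The number of reads was not given with the values and was estimated from the spacing of low values as 3297141 to 10826304 per library, lowest in the 2 saline mice, so low genes were measured least precisely there.

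Macrophages exposed to IL-4 or IL-13 signal through STAT6 and switch on a programme known as alternative activation, of which Arg1, Chil3 and Retnla are the best known mouse genes. Scavenger receptors and lectins such as MSR1, MARCO, CD163 and the mannose receptor MRC1 take up modified lipoproteins, haemoglobin, glycoproteins and debris. In many organs LYVE1, FOLR2, CD163 and MRC1 mark macrophages that live in the tissue for long periods, while injury draws in monocytes that become macrophages with other gene programmes.

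Promoter sequence from RefSeq (GRCm38.p6) was given for 6 of the 10 genes (Chil3, Retnla, Mrc1, Cd163, Marco and Folr2, with 2 windows for Folr2), and the 250 bases before each start site were searched on both strands for 4 motifs. These were TTCNNNNGAA, bound by STAT6, TTCNNNGAA, bound by other STAT factors, GAGGAA, the core of the PU.1 motif of macrophages, and GAAANNGAAA, an interferon response element. The 2 STAT motifs differ in spacing, and no match in these windows overlapped another. The stretches below are shown because Retnla and Chil3 held the STAT matches and Mrc1 and Marco are scavenger genes with a PU.1 match. Capitals mark the match, with 20 bases on each side, 5′ to 3′ on the strand of the gene.
Retnla, chr16:48842444-48842493, plus strand, TTCNNNNGAA at 145 to 136 bases before the start: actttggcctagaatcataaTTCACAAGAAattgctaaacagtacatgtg
Chil3, chr3:106167708-106167756, minus strand, TTCNNNGAA at 172 to 164 bases before the start: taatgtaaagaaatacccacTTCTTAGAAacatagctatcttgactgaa
Marco, chr1:120505145-120505190, minus strand, GAGGAA at 146 to 141 bases before the start: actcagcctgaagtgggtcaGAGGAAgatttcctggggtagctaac
Mrc1, chr2:14229214-14229259, plus strand, the reverse complement of GAGGAA at 180 to 175 bases before the start: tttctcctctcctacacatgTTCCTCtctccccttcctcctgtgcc
Of 32851 mouse promoter windows of the same length, 5.85% held TTCNNNNGAA, 7.02% held TTCNNNGAA, 23.3% held GAGGAA and 2.98% held GAAANNGAAA. The Mrc1 window held 3 matches of GAGGAA, a further 1 of them in lower case in the stretch shown, and the Retnla window 1. None of these letters was found in the windows of Cd163 and Folr2, and GAAANNGAAA was found in none of the 7 windows.

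The 10 genes fell into different patterns over the groups. A recruited-type pattern was defined as a mean in AP at least 2 times that in saline, both AP mice above both saline mice, and both pretreated mice below both AP mice. It held for 4 genes, Chil3, Msr1, Mrc1 and Folr2. A resident-type pattern was defined as a mean in AP under 2 times that in saline, and it held for 5 genes, Arg1, Lyve1, Cd163, Retnla and Clec10a. Marco had neither, because its 2 AP mice lay on opposite sides of a saline mouse. Just inside the limit lay Folr2, with a mean in AP 2.96 times that in saline, and just outside it lay Arg1, at 1.88 times. The patterns of 5 genes rested on single mice. Without saline replicate 1, Arg1 (5.75 times), Retnla (12.4 times) and Marco (12.4 times) also had the recruited-type pattern, for 7 genes in all, and Lyve1 (2.01 times) had neither. Without AP replicate 1, Arg1 (2.05 times), Lyve1 (2.15 times) and Marco (6.03 times) joined it, also for 7. Without saline replicate 2, Folr2 (1.68 times) and Marco (1.91 times) had the resident-type pattern, as Marco (0.604 times) did without AP replicate 2. Chil3, Msr1, Mrc1, Cd163 and Clec10a had the same pattern with any of the 6 mice left out. The names describe values only, and in whole pancreas RNA more cells of a type and more RNA per cell cannot be told apart. The share of all genes with either pattern was not computed, so nothing is read from how many of the 10 had it.

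**Figure D1:**
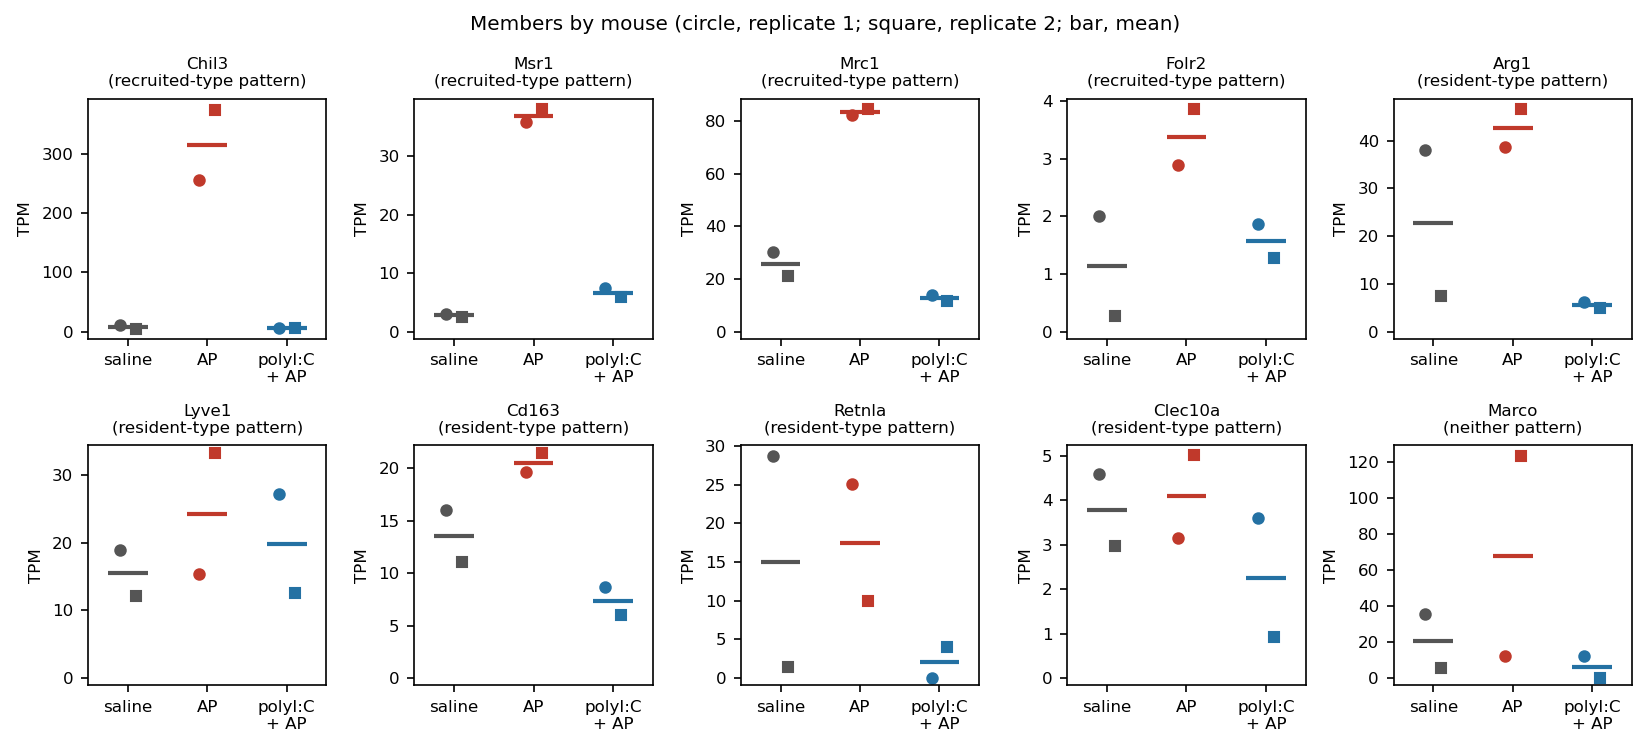
TPM of the 10 genes (y axis, a linear scale of its own for each gene) in the 6 mice by group, with a circle for replicate 1, a square for replicate 2 and a bar for the mean. Chil3, Msr1 and Mrc1 stood far higher in both AP mice than in the other 4 mice, Arg1 and Retnla were high in a saline mouse as well, and Marco was high in 1 AP mouse.

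Chil3 (ENSMUSG00000040809, GRCm38 chromosome 3, 106147554 to 106167564, minus strand) encodes YM1, a secreted chitinase-like lectin used as a marker of alternatively activated macrophages. Its levels were 11.2 and 4.47 TPM in the saline mice, 256 and 374 TPM in AP mice, and 5.89 and 6.73 TPM in pretreated mice. Both AP mice were more than an order of magnitude above every other mouse, and the pretreated mice lay between the saline mice. The AP mean was 40.1 times the saline mean, and the log2 fold change was 5.34 ± 0.39 (SE, n = 2 per group). With polyI:C pretreatment the difference to AP was -5.51 ± 0.39 on the log2 scale, and the difference to saline was -0.17 ± 0.39. Chil3 shares 4.93% of its 100-base stretches of exon sequence with other genes, mainly Chil4, whose level was at most 0.164 TPM in any mouse. Summed neutrophil markers were also highest in the AP mice (73.0 and 64.5 TPM), and which cells held the Chil3 RNA was not tested.

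Msr1 (ENSMUSG00000025044, chromosome 8, 39581685 to 39642673, minus strand) encodes the class A scavenger receptor for modified lipoproteins and many microbial ligands. It was measured at 3.01 and 2.55 TPM in saline, 35.9 and 38.1 TPM in AP, and 7.40 and 5.88 TPM in pretreated mice. The 3 groups did not overlap, with saline lowest and AP highest. Its log2 fold changes were 3.52 ± 0.16 for AP against saline, -2.40 ± 0.16 in pretreated against AP mice, and 1.12 ± 0.16 in pretreated against saline mice. Among the 4 genes with the recruited-type pattern, Msr1 and Folr2 had means above saline after polyI:C pretreatment, and only for Msr1 were both mice above both saline mice.

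Mrc1 (ENSMUSG00000026712, chromosome 2, 14229392 to 14332057, plus strand) encodes CD206, the mannose receptor that clears glycoproteins and is used as a marker of both resident and alternatively activated macrophages. Its TPM was 30.4 and 21.0 in saline mice, 82.2 and 84.7 in AP mice, and 13.8 and 11.4 in pretreated mice. The AP mice were nearly equal and highest, and the pretreated mice were lower than both saline mice. On the log2 scale, Mrc1 differed by 1.70 ± 0.18 between AP and saline, -2.68 ± 0.18 in pretreated against AP mice, and -0.98 ± 0.18 in pretreated against saline mice. After polyI:C pretreatment, Mrc1 was thus under the saline level, Chil3 within the range of the saline mice and Msr1 above it.

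Folr2 (ENSMUSG00000032725, chromosome 7, 101839988 to 101857194, minus strand) encodes folate receptor beta, a marker of tissue-resident macrophages. Its level was low in every mouse, with 2.01 and 0.274 TPM in saline, 2.90 and 3.86 TPM in AP, and 1.86 and 1.28 TPM in pretreated mice. The AP mice were highest, while the pretreated mice lay between the 2 saline mice. AP exceeded saline by 1.47 ± 0.72 on the log2 scale, and by 0.62 without saline replicate 2 and by 2.31 without saline replicate 1. Exons of Gm10602 on the opposite strand cover 63.1% of the exon bases of Folr2, and the strand setting of the authors' counting is not given in the sources used here, so reads of the 2 genes may not be separated. Its neighbour and relative Folr1 was measured at 0.124 to 0.439 TPM over the 6 mice.

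Arg1 (ENSMUSG00000019987, chromosome 10, 24915221 to 24927484, minus strand) encodes arginase 1, which turns arginine into ornithine and urea. Its level was 38.1 and 7.42 TPM in the saline mice, 38.7 and 46.6 TPM in AP mice, and 6.20 and 4.93 TPM in pretreated mice. Saline replicate 1 was close to the AP mice and saline replicate 2 close to the pretreated mice, so the saline mice spanned nearly the whole range. Between AP and saline the difference was 1.30 ± 0.65 on the log2 scale, and it was 0.16 without saline replicate 2 and 2.44 without saline replicate 1. Against AP, where the groups did not overlap, it was -2.83 ± 0.65 with polyI:C pretreatment. Arg2, the mitochondrial arginase of many cell types, was measured at 48.4, 30.7, 49.5, 51.3, 55.8 and 140 TPM in the same order of mice, and was highest in the mouse where Arg1 was lowest.

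Cd163 (ENSMUSG00000008845, chromosome 6, 124304656 to 124330527, plus strand) encodes the receptor for haemoglobin bound to haptoglobin. It was measured at 16.0 and 11.1 TPM in saline, 19.7 and 21.4 TPM in AP, and 8.64 and 5.99 TPM in pretreated mice. The 3 groups did not overlap, but the steps were small. Its log2 fold changes were 0.60 ± 0.24 for AP against saline, -1.45 ± 0.24 in pretreated against AP mice, and -0.84 ± 0.24 in pretreated against saline mice.

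Lyve1 (ENSMUSG00000030787, chromosome 7, 110850607 to 110863239, minus strand) encodes a hyaluronan receptor of lymphatic endothelium and of perivascular macrophages. Its TPM was 18.9 and 12.1 in saline, 15.3 and 33.4 in AP, and 27.2 and 12.6 in pretreated mice. The groups overlapped in every comparison. Fitted differences were 0.57 ± 0.47 on the log2 scale for AP against saline and -0.28 ± 0.47 in pretreated against AP mice. Prox1, a transcription factor of lymphatic endothelium, was measured at 5.67 and 3.82, 3.41 and 4.23, and 5.15 and 2.15 TPM in the same groups, and Mmrn1, another gene of that endothelium, at 10.4 and 7.46, 6.50 and 9.07, and 14.6 and 6.07 TPM. In pretreated mice Lyve1, Prox1 and Mmrn1 were higher in replicate 1 than in replicate 2 (2.15-fold for Lyve1), whereas Flt4, the VEGF receptor of that endothelium, was at 2.60 and 2.87 TPM, and the part of lymphatic vessels in the Lyve1 level was not tested.

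Retnla (ENSMUSG00000061100, chromosome 16, 48842551 to 48844461, plus strand) encodes RELM alpha (FIZZ1), a secreted product of alternatively activated macrophages that adipose tissue also makes. Its TPM was 28.6 and 1.41 in saline mice, 25.0 and 9.90 in AP mice, and it was listed at 0 and at 4.06 in pretreated mice. The saline mice differed 20.3-fold and spanned both AP mice. Its short transcript left few reads behind these values, an estimated 25 and 1 reads in saline, 32 and 16 in AP, and 0 and 8 in pretreated mice. A count of 0 allowed up to 1.91 TPM in that mouse (3 reads). Fitted on the log2 scale, Retnla differed by 1.13 ± 1.48 between AP and saline and by -3.43 ± 1.48 in pretreated against AP mice.

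Clec10a (ENSMUSG00000000318, chromosome 11, 70156197 to 70170834, plus strand) encodes the galactose-type lectin MGL1 of macrophages and dendritic cells. It was measured at 4.60 and 2.96 TPM in saline, 3.14 and 5.03 TPM in AP, and 3.60 and 0.921 TPM in pretreated mice, with overlap between all groups. The differences on the log2 scale were 0.09 ± 0.58 for AP against saline and -0.89 ± 0.58 in pretreated against AP mice. Its neighbour and close relative Mgl2, the other mouse MGL lectin, was measured at 4.61 and 4.69, 1.85 and 2.49, and 0.620 and 0.141 TPM in the same groups. Mgl2 was lower in pretreated mice than in saline mice by 2.60 on the log2 scale (log2 fold change -2.60 ± 0.50, adjusted p = 0.0068 by limma with Benjamini-Hochberg adjustment), while its difference between AP and saline (-0.96 ± 0.50) did not pass the threshold. The 2 genes share 2.64% of the 100-base stretches of Clec10a.

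Marco (ENSMUSG00000026390, chromosome 1, 120474538 to 120505024, minus strand) encodes a class A scavenger receptor of marginal zone, alveolar and serosal macrophages. Its TPM was 35.4 and 5.44 in saline mice, 12.3 and 123 in AP mice, and it was 12.1 and listed at 0 in pretreated mice. AP replicate 2 stood alone, and AP replicate 1 was lower than saline replicate 1. For the mouse listed at 0 a count of 0 allowed up to 0.474 TPM (3 reads). On the log2 scale the differences were 1.45 ± 1.72 for AP against saline and -3.99 ± 1.72 in pretreated against AP mice, with standard errors larger than those of the other 9 genes. The other class A scavenger receptor, Msr1, differed between the mice of a group by 1.06-fold to 1.26-fold.

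**Figure D2:**
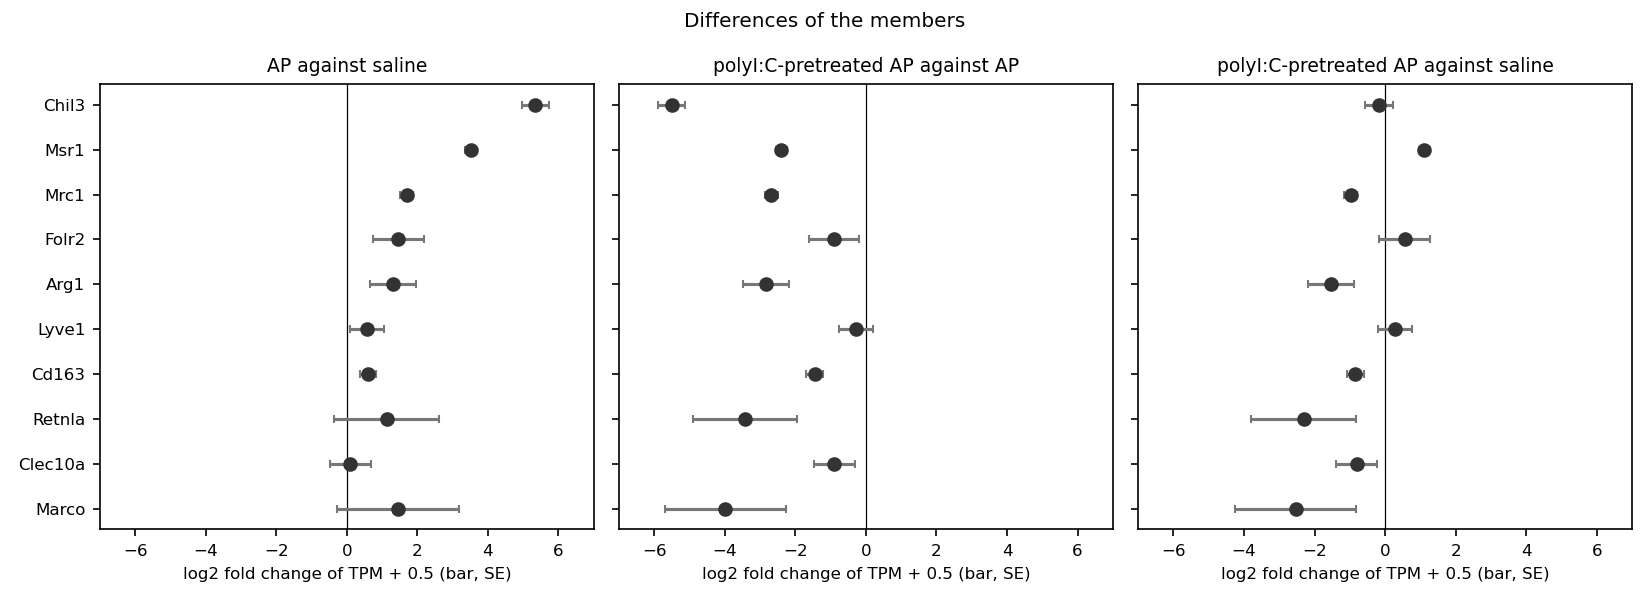
Log2 fold change of TPM + 0.5 (x axis) of each gene in 3 comparisons, with bars for the SE of the limma fit to all 6 mice (n = 2 per group). Chil3, Msr1 and Mrc1 lay to the right in AP against saline and to the left with polyI:C pretreatment, while Retnla and Marco had the widest bars.

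Over the 10 genes the median difference on the log2 scale was 1.37 for AP against saline, -2.54 in pretreated against AP mice and -0.82 in pretreated against saline mice, beside 0.45, 0.04 and 0.48 over all 16814 genes tested. The threshold for every gene was an adjusted p of 0.05 or less together with at least a 2-fold change. In AP against saline, 18.2% of all tested genes were past it as higher and 3 of the 10 were (Chil3, Msr1 and Mrc1), while 4.03% were past it as lower and 0 of the 10 were. In pretreated against AP mice, 0.404% of all genes were past it as lower and 4 of the 10 were (Chil3, Mrc1, Cd163 and Msr1), while 0.44% were past it as higher and 0 of the 10 were. Of these 0 counts, both were also 0 at an unadjusted p and 2-fold. In pretreated against saline mice, 16.9% of all genes were past it as higher and Msr1 was, and 2.97% were past it as lower and 0 of the 10 were by limma, with 0 of 10 also at an unadjusted p and 2-fold and 2 of 10 at an unadjusted p of any size. When libraries were scaled by the median of ratios, Mrc1 (-1.42) and Cd163 (-1.28) were past it as lower in that comparison and Msr1 (0.71) was not past it. Both AP mice were above both saline mice for 6 of the 10 genes, beside 52.6% of all genes, and both pretreated mice were below both AP mice for 8 of the 10 (all but Lyve1 and Clec10a), beside 22.1% of all genes. Nothing is read from these counts, because the choice of the genes used the same comparisons, and the first 2 comparisons share the AP mice.

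With a mouse left out, the differences between pretreated and AP mice shifted as follows. The threshold favours genes with a small spread between these same mice, so narrow ranges for the 4 genes past it are no support. The log2 fold change ranged from -5.78 to -5.24 for Chil3, from -2.81 to -2.55 for Mrc1, from -2.55 to -2.25 for Msr1 and from -1.70 to -1.20 for Cd163. It ranged from -2.98 to -2.68 for Arg1 and from -1.11 to -0.70 for Folr2. Wider ranges were found for Marco (-6.31 to -1.66), Retnla (-5.03 to -1.84) and Clec10a (-1.66 to -0.13), and Lyve1 changed sign (-0.83 to 0.27). The threshold itself moved for every gene. By limma, no gene was past it without AP replicate 1, AP replicate 2 or pretreated replicate 2, the 10 included. Without pretreated replicate 1, Msr1 alone of the 10 was past it. Cd163 was not past it with a pseudocount of 0.1, without the filter on low values, with a prior following the mean level, with the 4 mice of the comparison alone, or with any of the 6 mice left out. Arg1 was past it as lower in that comparison with the 4 mice alone or without either saline mouse, and without saline replicate 1 Arg1 and Folr2 were past it as higher in AP against saline. Without saline replicate 2, Arg1 (-2.68), Mrc1 (-1.24) and Cd163 (-1.10) were past it as lower in pretreated against saline mice, and without pretreated replicate 1 Msr1 (0.96) was under 2-fold there.

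The order of the genes differed between the groups. In saline mice Mrc1 had the highest mean (25.7 ± 6.59 TPM, SD, n = 2), followed by Arg1 and Marco, whose mice spanned both sides of it. In AP mice Chil3 led with 315 ± 83.2 TPM, with both mice above every other gene of the 10, and Mrc1 had 83.4 ± 1.76 TPM. In pretreated mice Lyve1 had the highest mean, 19.9 ± 10.3 TPM, and its range overlapped that of Mrc1, which was next with 12.6 ± 1.69 TPM. Folr2 had the lowest mean in all 3 groups, though in pretreated mice (1.57 TPM) its mice lay within the ranges of Retnla and Clec10a.

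General macrophage and monocyte genes moved with several of the 10. The summed TPM of Adgre1 (F4/80), Csf1r, Cd68, Fcgr1, Itgam (CD11b), Cx3cr1, Aif1, Mpeg1 and Ptprc (CD45) was 82.1 and 53.0 in saline mice, 269 and 300 in AP mice, and 97.1 and 95.0 in pretreated mice. Of these 9 genes, 7 rose in AP against saline, beside 18.2% of all genes. With polyI:C pretreatment against AP 4 fell (Csf1r, Fcgr1, Itgam and Cx3cr1), beside 0.404%. Against saline 3 were higher and 2 lower in pretreated mice, beside 16.9% and 2.97%. The levels of the 10 genes were therefore also set against this sum, as TPM per 100 TPM of it, a ratio within each library that no scaling between libraries changes. This ratio was added after the values had been seen and is a description.

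**Figure D3:**
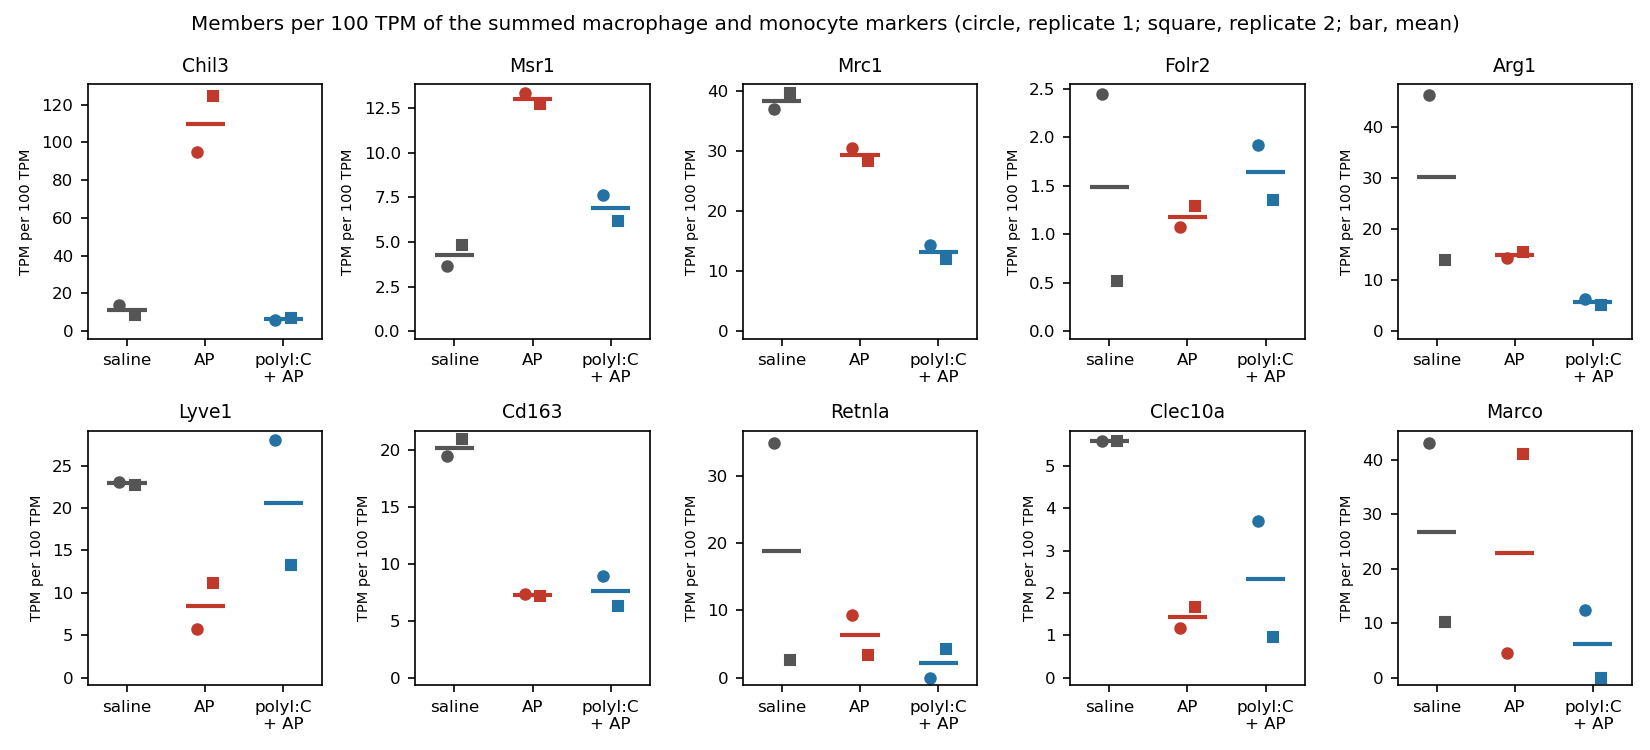
Each gene's TPM per 100 TPM of 9 summed macrophage and monocyte markers (y axis, a linear scale of its own for each gene) in the 6 mice, with a circle for replicate 1, a square for replicate 2 and a bar for the mean. Relative to these markers Chil3 and Msr1 were highest in AP, whereas Mrc1, Cd163, Lyve1 and Clec10a were lower in each AP mouse than in either saline mouse.

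Set against the macrophage sum, the genes separated in another way than by their levels. Chil3 was at 13.7 and 8.42 in saline, 95.1 and 125 in AP, and 6.06 and 7.08 in pretreated mice, and thus remained far higher in AP than in either other group. Msr1 was at 3.67 and 4.80, 13.3 and 12.7, and 7.62 and 6.19, in the same order of groups as its TPM. Mrc1, whose mean TPM in AP was 3.25 times that in saline, was at 37.0 and 39.7 in saline, 30.5 and 28.2 in AP, and 14.3 and 12.0 in pretreated mice. Relative to the sum, Mrc1 was thus lower in AP than in saline and lowest after polyI:C pretreatment, with no overlap. Cd163 was at 19.5 and 20.9 in saline, 7.30 and 7.14 in AP, and 8.90 and 6.31 in pretreated mice, so that the AP and pretreated mice overlapped while both lay under the saline mice. Lyve1 was at 23.0 and 22.8 in saline, 5.69 and 11.1 in AP, and 28.0 and 13.3 in pretreated mice.

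The remaining genes had lower or less regular ratios. Clec10a was at 5.60 and 5.59 in saline, 1.17 and 1.68 in AP, and 3.71 and 0.970 in pretreated mice. Arg1 was at 46.3 and 14.0 in saline, 14.4 and 15.6 in AP, and 6.39 and 5.19 in pretreated mice, lowest in the last group and in AP within the range of the saline mice. The ratios of Folr2, Retnla and Marco overlapped between saline and AP mice. By this ratio 2 of the 10 genes, Chil3 and Msr1, had both AP mice above the saline mice, beside 4.94% of all genes, and 4 had them below, Mrc1, Cd163, Lyve1 and Clec10a, beside 77.3% of all genes. As the sum itself rose in AP, most genes were lower against it, and nothing is read from these counts.

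Genes with the pattern most like Chil3 and Mrc1, the genes with the highest mean level among the alternative activation genes and among the resident-type receptors, were found by Pearson's r over the 6 mice on log2(TPM + 0.5) among 16804 other genes. Among the nearest to Chil3 were Il1r1 (r = 0.996), Cd200r1, Cybb and Atp8b4 (r = 0.993 for each of the last 3), and 44 genes had an r above 0.98. Cd200r1, an inhibitory receptor of myeloid cells, was measured at 1.07 and 0.655 TPM in saline, 10.9 and 10.6 TPM in AP, and 1.04 and 0.943 TPM in pretreated mice. Nearest to Mrc1 were F13a1 (r = 0.997), Lyz2 (r = 0.996), Mettl1, Fmnl1 and Fam171a2, and 8 genes had an r above 0.98. F13a1, the coagulation factor XIII A chain made by monocytes and alternatively activated macrophages, was measured at 50.6 and 28.7 TPM in saline, 148 and 155 TPM in AP, and 14.3 and 12.5 TPM in pretreated mice. The 6 mice share their groups and libraries, so the values of r are a description.

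Around the 10 genes, 4 lists held 72 other genes of the same biology, of which 71 were listed and 63 tested. The lists were chosen with earlier results of these data known, so their counts and p-values are a description. In AP against saline 26 genes were past the threshold as higher and 2 as lower, beside 18.2% and 4.03% of all genes. Il2rg, Egr2 and Trem2, counted as higher, reached the filter for tests only through the AP mice. In pretreated against AP mice 0 were higher and 9 lower, beside 0.44% and 0.404%. At an unadjusted p and 2-fold 1 was higher and 22 lower, beside 1.94% and 2.38%. In pretreated against saline mice 9 were higher and 5 lower, beside 16.9% and 2.97%, and the same shares apply to each list below. At an unadjusted p and 2-fold the shares of all genes were 20.3% and 4.79% in AP against saline. They were 19.2% and 3.65% in pretreated against saline mice. When libraries were scaled by the median of ratios, which brought the median of all genes in AP against saline from 0.45 to 0.06, the counts were 16 higher and 3 lower, 0 and 9, and 7 and 7. Of the genes named below, Ear2, Egr2 and Cbr2 in AP against saline, and Pparg (0.66) and C1qa (0.66) in pretreated against saline mice, then did not pass. All tested genes then split into 1566 higher and 1221 lower in AP against saline, in place of 3053 and 677. With a mouse left out, AP against saline gave from 15 (without AP replicate 2) to 33 (without saline replicate 1) genes of the lists in either direction, and 17 without AP replicate 1 and 18 without saline replicate 2, in place of 28. Pretreated against saline mice gave 7 without pretreated replicate 2, in place of 14.

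**Figure D4:**
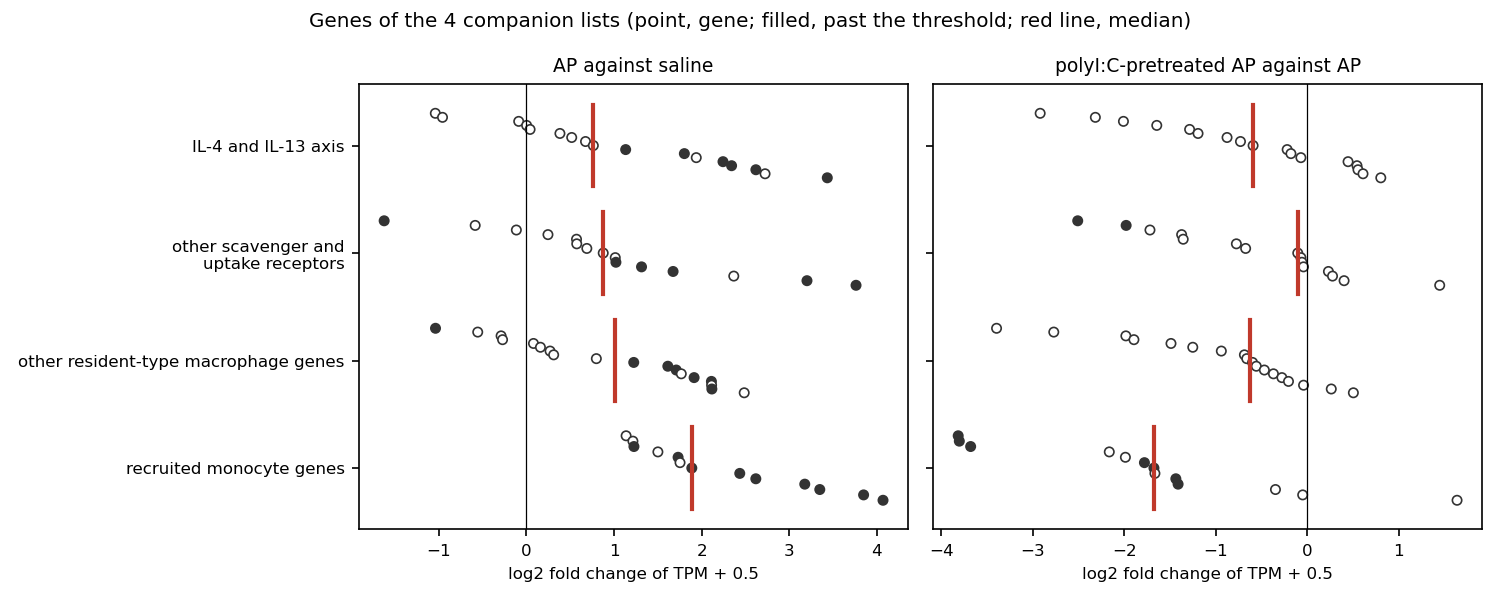
Log2 fold change of TPM + 0.5 (x axis) of the tested genes of 4 lists (rows) in AP against saline and in pretreated against AP mice, 1 point a gene, filled where past the threshold, with a red line at the list's median. Genes of recruited monocytes had the highest median of the 4 lists in AP (1.89) and the lowest with polyI:C pretreatment (-1.68).

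Upstream of the alternative activation genes lies the IL-4 and IL-13 axis (22 genes, 17 tested). Il4 was measured at 1.95 to 6.86 TPM and Il13 at 0 to 1.40 TPM over the 6 mice, too low for Il13 to be tested. Both receptor chains were higher in AP, with Il13ra1 at 27.3 and 34.3, 143 and 151, and 129 and 131 TPM in saline, AP and pretreated mice (log2 fold change 2.24 ± 0.13, adjusted p = 8e-05), and Il4ra at 3.04 and 4.84, 24.1 and 28.5, and 13.9 and 14.2 TPM (2.62 ± 0.22, adjusted p = 0.00027). With polyI:C pretreatment neither passed the threshold against AP, and both were higher than in saline (adjusted p = 0.00011 and 0.0012). The difference of Il13ra1 between pretreated and AP mice was -0.18 ± 0.13 on the log2 scale, beside -5.51 ± 0.39 for Chil3. Stat6, the transcription factor of the axis, had log2 fold changes of 0.76 ± 0.10 in AP and 0.69 ± 0.10 in pretreated against saline mice, both under the 2-fold limit. In all, 6 genes of the axis were higher in AP and 0 lower (at an unadjusted p and 2-fold, 7 and 1), with Ear2, a ribonuclease of eosinophils and macrophages from a family of very similar genes, the largest rise (3.44 ± 1.00, adjusted p = 0.033). Il2rg, the common gamma chain of the IL-4 receptor, was listed at 0 in both saline mice, at 1.58 and 2.59 TPM in AP and at 0.891 and 1.18 TPM in pretreated mice. Il2rg is counted among the rises in AP, with a log2 fold change of 2.34. It reached the filter for tests only through the AP mice, so its difference is a description. The same holds for Egr2, also counted among the rises (1.80), with means of 0.403, 2.55 and 0.763 TPM in saline, AP and pretreated mice. Against AP, 0 of the 17 passed with polyI:C pretreatment (at an unadjusted p and 2-fold, 0 higher and 4 lower). Against saline, 3 were higher (Il13ra1, Il4ra and Pparg) and 2 lower, Mgl2 and Alox15, a lipoxygenase that IL-4 and IL-13 induce (-2.01 ± 0.52, adjusted p = 0.022).

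Other scavenger and uptake receptors (18 genes, 15 tested) did not share a single pattern. Stab1, a scavenger receptor of resident macrophages and sinusoidal endothelium, was measured at 9.17 and 6.34, 26.3 and 24.6, and 7.27 and 5.07 TPM in saline, AP and pretreated mice. It rose in AP (1.67 ± 0.22, adjusted p = 0.0015) and fell with polyI:C pretreatment (-1.98 ± 0.22, adjusted p = 0.019). Trem2, a lipid receptor of macrophages at sites of damage, was at 0.195 and 0.120, 5.21 and 5.91, and 0.326 and 0.865 TPM. It also rose (3.20 ± 0.38) and fell (-2.51 ± 0.38). Trem2 reached the filter for tests only through the AP mice, so both differences, which the counts below include, are a description. Cxcl16, the membrane-bound chemokine that acts as a scavenger receptor for oxidised lipoprotein, was at 3.29 and 2.19, 39.9 and 46.1, and 40.5 and 41.9 TPM, and its difference between the groups with pancreatitis did not pass (-0.06 ± 0.19, adjusted p = 0.94). Scara5, a ferritin receptor of stromal cells, fell in AP (-1.63 ± 0.25, adjusted p = 0.0027). Scara3, a scavenger receptor family gene, was higher in pretreated than in saline mice (1.55 ± 0.25, adjusted p = 0.0037). In all, 5 rose and 1 fell in AP, 0 rose and 2 fell with polyI:C pretreatment against AP (at an unadjusted p and 2-fold, 1 and 4), and 2 were higher and 0 lower against saline (at an unadjusted p and 2-fold, 2 and 0). Cd209a, a C-type lectin gene, was listed at 0 in 4 mice and at 2.60 and 1.49 TPM in the AP mice.

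Other genes of resident-type macrophages (19 genes, 18 tested) gave 6 rises and 1 fall in AP. Among the rises were Cbr2, a carbonyl reductase (2.11 ± 0.66, adjusted p = 0.043) and C1qb of the first complement component (1.91 ± 0.32, adjusted p = 0.0037). The fall was Selenop, a selenium transport protein that many cells secrete (-1.04 ± 0.09, adjusted p = 0.00034). With polyI:C pretreatment against AP 0 of 18 passed (at an unadjusted p and 2-fold, 0 higher and 5 lower). Against saline C1qa was higher (1.11 ± 0.29, adjusted p = 0.022), and Vsig4, a complement receptor of resident macrophages (-2.27 ± 0.73, adjusted p = 0.047), and Fcna, a ficolin (-1.74 ± 0.54, adjusted p = 0.042), were lower. Timd4, a phosphatidylserine receptor of long-lived resident macrophages, was measured at 3.78 and 5.81, 3.45 and 7.15, and 1.93 and 4.47 TPM, with overlap between the groups as for Lyve1.

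Genes of recruited monocytes (13, all tested) gave 9 rises in AP and 0 falls, beside 18.2% and 4.03% of all genes. At an unadjusted p and 2-fold they gave 11 and 0, beside 20.3% and 4.79%. With polyI:C pretreatment against AP they gave 7 falls and 0 rises, beside 0.404% and 0.44%. At an unadjusted p and 2-fold that was 9 and 0, beside 2.38% and 1.94%. The list was chosen with earlier results of these data known, so these counts are a description. Ccr2, the receptor that brings monocytes out of the bone marrow, was measured at 3.76 and 2.40, 36.2 and 34.4, and 2.17 and 1.92 TPM (3.35 ± 0.20 with adjusted p = 9.8e-05 in AP against saline, and -3.82 ± 0.20 with adjusted p = 0.0027 in pretreated against AP mice). Ccr1, another chemokine receptor, and Lyz2, the lysozyme of myeloid cells and a close copy of Lyz1, fell alongside it (-3.80 ± 0.29, adjusted p = 0.0048, and -3.68 ± 0.27, adjusted p = 0.0044). Itga4, Emilin2, Vcan and Thbs1 fell by less, with log2 fold changes from -1.78 to -1.41 and adjusted p from 0.015 to 0.047. Ccr1 (4.07 ± 0.29, adjusted p = 0.00017) and Cd14, the endotoxin co-receptor (3.85 ± 0.10, adjusted p = 1.3e-05), had the largest log2 fold changes of the list in AP against saline. Not every gene of the list then fell. Ly6c2 was at 2.20 and 0.579, 4.51 and 4.16, and 3.32 and 3.27 TPM, and passed the threshold in none of the comparisons. Cd14 was at 15.7 and 13.9, 218 and 222, and 216 and 209 TPM, and its difference with polyI:C pretreatment against AP was -0.05 ± 0.10 (adjusted p = 0.89). Against saline, Plac8, Cd14 and Vcan were higher and Lyz2 lower in pretreated mice. With any mouse left out, the log2 fold changes of the 9 genes of the 4 lists that fell stayed within 0.39 of these values. The threshold favours genes with a small spread between these mice, so these narrow ranges are no support. Without AP replicate 1, AP replicate 2 or pretreated replicate 2, no gene passed limma's threshold, those 9 included. Without pretreated replicate 1, most of the 9 also did not pass.

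Markers of other cells were set beside the 10 genes. The 2 genes with the widest spread between mice, Retnla and Marco, moved with different ones. Summed adipocyte markers (Adipoq, Plin1, Cidec, Lep, Retn and Car3, all 6 listed) were 67.2 and 16.7 TPM in saline, 59.9 and 22.0 TPM in AP, and 18.3 and 24.6 TPM in pretreated mice, high in the same saline mouse and the same AP mouse as Retnla. Lep was listed at 0 in both pretreated mice, and Adipoq was at 2.92 to 13.5 TPM over the 6 mice. Summed lymphocyte markers (7 of 7 listed) were 5.17 TPM in AP replicate 1 and 25.4 TPM in AP replicate 2, where Marco was highest, and 3.26 to 9.62 TPM in the other 4 mice. Summed mesothelial markers (4 of 4 listed) were 41.5 and 42.1 TPM in saline, 28.6 and 81.4 TPM in AP, and 28.1 and 58.6 TPM in pretreated mice, and so followed Marco in AP but ran opposite to it in pretreated mice, where Marco was at 12.1 TPM and listed at 0. Of the adipocyte, lymphocyte and mesothelial markers, 0 passed limma's threshold in any of the 3 comparisons, and 0 did at an unadjusted p and 2-fold. The part of these cells in the levels of Retnla and Marco was not tested.

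**Figure D5:**
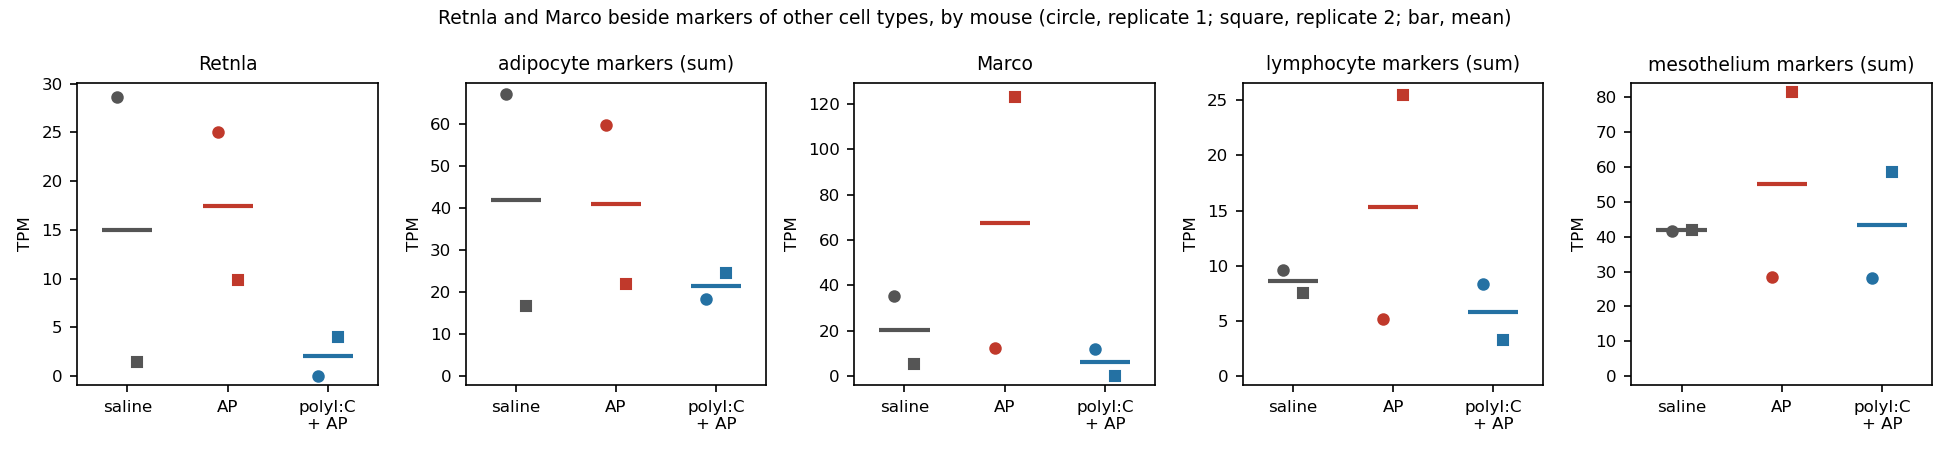
TPM (y axis, linear) of Retnla and Marco and the summed TPM of adipocyte, lymphocyte and mesothelial markers in the 6 mice, with a circle for replicate 1, a square for replicate 2 and a bar for the mean. Retnla and the adipocyte sum were high in the same 2 mice of the saline and AP groups, and Marco and the lymphocyte sum were both highest in AP replicate 2.

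Neutrophil markers (9 of 10 listed) summed to 18.2 and 5.80 TPM in saline, 73.0 and 64.5 TPM in AP, and 45.0 and 21.8 TPM in pretreated mice. Of the 7 tested 3 rose in AP, beside 18.2% of all genes, a share that applies to the markers below as well. Among the 7, Mmp8 (means of 0, 2.37 and 0.722 TPM in saline, AP and pretreated mice) and Mmp9 (0.987, 1.58 and 0.462 TPM) reached the filter for tests only through the AP mice. The count is thus a description. Eosinophil markers (5 of 7 listed) summed to at most 6.98 TPM, with 1 of 2 tested, Ccr3, higher in AP (2.64 ± 0.59). Ccr3 reached the filter for tests only through the AP mice, so its difference is a description. Dendritic cell markers, which bear on Clec10a, summed to 37.7 and 31.2, 26.0 and 35.3, and 24.0 and 21.5 TPM, most of it Zbtb46, and 1 of the 4 tested, Itgax, was higher in AP. Lymphatic endothelium markers summed to 30.3 and 22.9, 71.7 and 74.5, and 53.9 and 38.9 TPM, and the only 1 of 5 that passed in AP was Pdpn, which fibroblasts also express. Blood endothelium markers summed to 42.5 to 67.3 TPM with 0 of 4 past the threshold in any comparison (0 also at an unadjusted p and 2-fold). Ductal markers gave 2 of 4 higher in AP. Among hepatocyte markers (3 tested, 0 past limma's threshold and 1 lower in pretreated than in saline mice at an unadjusted p and 2-fold), Apoa1 was listed at 269 TPM in pretreated replicate 2 and at no more than 0.462 TPM in the other 5 mice. Of 8 acinar markers Amy2a5 alone was analysed here, at 290 and 213, 22.1 and 16.9, and 52.6 and 57.2 TPM. It encodes a pancreatic amylase.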

How the data were processed

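RNA-sequencing of the pancreas of 6 mice was analysed, 2 per group, with groups and replicate numbers from the labels. The authors used Trimmomatic for trimming, STAR for alignment to mm10 and HTSeq for counts per gene. They deposited TPM values per gene, and the step from counts to TPM and the strand setting are not given in the sources used here. The labels name a ribosomal RNA depletion kit and a stranded mRNA kit for the same samples.

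Symbols and coordinates came from GENCODE M21 (22490 of 22556 identifiers). Differences were fitted with limma 3.58.1 (R 4.3.3) on log2(TPM + 0.5) over 16814 genes (mean TPM of 1 or more), with 1 coefficient a group, all 6 mice sharing the spread, a prior trended on mean TPM times exon length, and Benjamini-Hochberg adjustment over all genes. This design leaves 3 residual degrees of freedom, and an exact permutation test of 2 against 2 mice cannot go below p = 0.333. Fold changes on this scale understate changes of low genes. Reads were estimated from the TPM step of low values (51.2% to 62.5% of them lay within 0.1 of a whole multiple, against 19.4% to 20.7% with lengths shuffled), so reads and limits are approximate and cover counting error only. No outlier test was made, because groups held 2 mice.

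The 10 genes, the lists of other genes and markers, and the patterns were chosen with earlier results of these data known. Named were the 10 genes, their relatives, genes of the lists past the threshold with polyI:C pretreatment against AP, the 3 largest rises and falls past it per list and comparison, marker genes where their list is described, and the 5 genes most like Chil3 and Mrc1, of which, as of the largest rises, not every gene is reported here. Further list genes (Stat6, Il4, Il13, Egr2, Timd4, Ly6c2, and Cd14 with polyI:C pretreatment) were named after their values were seen. Tables were read and figures drawn with Python 3.11.15, pandas 2.3.3 and matplotlib 3.10.9.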

Additional observations from a re-analysis of the deposited data

How the results depend on the processing

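Other pseudocounts, filters, a scaling, a prior, the 4 mice of a comparison alone, an unadjusted p and leaving out each mouse were tried. Of the recomputed log2 fold changes of the 10 genes, 242 moved by less than the spread between mice and 28 by more, most of them for Arg1, Chil3, Folr2 and Mrc1 when a saline mouse was left out, and none of those past the threshold changed sign. Counts of the 10 genes past the threshold ranged, with a mouse left out, from 3 to 5 in AP against saline, from 0 to 4 in pretreated against AP mice and from 0 to 4 in pretreated against saline mice. The last count was 2 with a pseudocount of 0.1 and 2 with median-of-ratios scaling, in place of 1. For the 63 other genes tested, the counts with a mouse left out ranged from 15 to 33, 0 to 8 and 7 to 16. Their count in pretreated against AP mice, 9, was 5 without the filter on low values, 3 with a prior following the mean log2 value, 5 with the 4 mice alone and 23 at an unadjusted p, and their count in pretreated against saline mice, 14, was 8 with the 4 mice alone. Over all genes, pretreated against AP mice gave 74 higher and 68 lower genes, 44 and 46 without the filter, 14 and 14 with the prior following the mean log2 value, 32 and 37 with the 4 mice alone, and 327 and 401 at an unadjusted p. With a mouse left out, from 3 to 7 of the 10 genes had the recruited-type and from 2 to 7 the resident-type pattern, in place of 4 and 5, an alternative chosen after seeing the data. The causes were not tested. Same-numbered mice did not deviate together (correlations of 0.0075, -0.0039 and 0.035 over 16814 genes), so the numbers were not taken as pairs. With the replicate number as a block, 3, 4 and 1 of the 10 genes and 29, 8 and 13 of the other genes passed. These are for AP against saline, pretreated against AP and pretreated against saline mice. Of all genes, 17.8%, 0.369% and 16.6% then passed as higher, and 3.92%, 0.369% and 2.9% as lower. In saline replicate 2, the library with the fewest reads, an estimated 1 read stood behind Retnla and Folr2 each, 9 behind Chil3 and 10 behind Clec10a.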

Other observations

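Relatives of the 10 genes differed in their patterns. Retnlg, a resistin-like gene of neutrophils, was measured at 2.25 and 2.77 TPM in saline, 35.4 and 28.0 TPM in AP, and 7.53 and 1.5 TPM in pretreated mice. By these values Retnlg met the definition of the recruited-type pattern. It was higher in AP than in saline by a log2 fold change of 3.41 ± 0.67 (adjusted p = 0.0072 by limma), and its difference of -3.00 ± 0.67 with polyI:C pretreatment against AP did not pass the threshold (adjusted p = 0.10). Retnlb, the resistin-like gene of gut goblet cells, was listed at 0 in the saline and AP mice and at 1.65 and 2.62 TPM in the pretreated mice, a mean too low over the 6 mice to be tested. Retn itself, a product of adipocytes, was at 0.979 to 5.44 TPM over the 6 mice.

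Pretreated replicate 2 stood apart for several genes at once. Apoa1 was listed at 269 TPM there and at 0.257 TPM in the other mouse of the group, Plac8 at 394 and 60.7 TPM, and Arg2 at 140 and 55.8 TPM. The other hepatocyte genes did not share a direction. Alb and Cyp2e1 were at 0.562 and 2.75 TPM in pretreated replicate 2, beside 3.96 and 7.15 TPM in the other mouse. Apoa2 went the other way, with 1.58 TPM in pretreated replicate 2 and 0.496 TPM in the other mouse. Fgb was low in both mice and slightly lower in pretreated replicate 2.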
